A study of Homo sapiens with 8 samples.

Results

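The ZBTB genes encode a family of transcription factors that carry a BTB domain, through which they pair and recruit corepressors, and C-terminal zinc fingers that contact DNA. Every protein-coding gene of GENCODE release 44 whose symbol is ZBTB followed by a number was taken, except ZBTB48, ZBTB10 and ZBTB12, which gave 39 genes of 20033. The choice used symbols alone, so it also brought in ZBTB8OS, a gene named for its place opposite the ZBTB8 genes, which encodes archease, a cofactor of tRNA ligation, and has no BTB domain. All 39 had a MANE Select transcript, the single transcript per gene on which the main annotations have settled, and its 5′ end was used as the promoter. The genes were spread over 14 chromosomes. The question put to them was whether the mark of an active promoter was higher at any of them once ZBTB48, a relative that binds telomeric repeats and a number of gene promoters, was lost.

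Related transcription factors can share binding sites and corepressors, and loss of one is sometimes met by a rise of another. Several members act in blood cells, among them ZBTB16 (PLZF), ZBTB7B (ThPOK) and ZBTB46. Others, such as ZBTB33 (Kaiso), ZBTB4 and ZBTB38, can bind methylated DNA, and ZBTB17 (MIZ-1) is a partner of MYC. H3K4me3, the trimethylation of lysine 4 of histone H3, sits around the 5′ ends of active or poised genes. It reports on the state of a promoter and not on the level of its transcript, which was not measured in these libraries.

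The cells were U2OS, a human osteosarcoma line. Wild-type clones (WT, replicates 1, 2 and 3) were set against 3 ZBTB48 knockout clones (KO, replicates 1, 2 and 3), and each library came from 1 clone. Both genotypes were exposed to interferon gamma (IFNγ) at 250 U/ml for 24 h, so the comparison is between genotypes under IFNγ and no untreated clone was included. Clones differ among themselves, and 3 clones per genotype set how far such differences can be told from that of genotype. The 2 WT input samples were not used here. The data were 1 list of broad H3K4me3 peaks per library, without read counts, so the depth behind a peak is unknown here.

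WT replicate 3 resembled the KO lists more than it did WT replicates 1 and 2. The latter had a median peak width of 2297 and 2353 bp, against 1487 bp in WT replicate 3 and 1275 to 1388 bp in the KO lists. Median fold enrichment was 13.4 and 14.0 in those 2 lists and 4.19 to 4.65 in the other 4. Results are therefore repeated with WT replicate 3 as the only WT list, so that like lists are compared. At ZBTB48 itself the promoter kept its peak in all 6 lists, so the mark there does not check the deletion. Of the 5 ZBTB48 targets CIITA, MTFP1, VWA5A, PXMP2 and SNX15, a list drawn from work on these clones and therefore not independent, 5 were called in each WT list and 4, 4 and 3 in the KO lists. At all 5 the mark was broader in every WT than in every KO library, as at 50.8% of the 14422 promoters with a peak within 3 kb in any library. Ranked by breadth within each library, 4 of the 5 stood higher in every WT than in every KO library, against 6.29% of those promoters. Of the osteoblast markers RUNX2, COL1A1 and SPARC were called in all 6 lists while SP7, COL1A2 and ALPL were called in none. The lymphocyte markers PTPRC and CD3E were called in none, and of the epithelial markers EPCAM was called in all 6 and CDH1 in none.

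A promoter counted as called when a peak overlapped the 1 kb on either side of its 5′ end. Of the 39 genes, 36 (92.3%) were called in all 6 libraries, while 65.1% of all 20033 promoters were. ZBTB18, ZBTB22 and ZBTB32 were called in some libraries, and no member was called in 0 libraries. The WT lists called 39, 38 and 36 members, beside 67.6, 67.4 and 67.5% of all promoters. Each KO list called 36, beside 67.8, 66.4 and 66.5% in KO replicates 1, 2 and 3. No member was called in all 3 KO lists and in no WT list, a pattern found at 0.0287% of the 13956 promoters called in any library. The opposite pattern, WT only, was found at 0 members and 0.15% of these promoters. Over the 36 members called throughout, the weakest −log10 q of the strongest peak was 11.2, at ZBTB38 in WT replicate 3, while the weakest peaks of the lists have values of at most 1.09. At 35 members the 5′ end itself lay under a peak in all 6 libraries, compared with 61.3% of all promoters.

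Most members have CpG-rich promoters. From 250 bases before to 50 after the 5′ end, CpG dinucleotides occurred at a median of 0.833 of the number expected from base composition, against 0.775 over all promoters, and 35 of 39 members reached 0.6 (89.7%, against 67.4% of all). The 4 below it were ZBTB18 (0.079), ZBTB47 (0.128), ZBTB38 (0.449) and ZBTB7B (0.570). The upstream sequences of 5 promoters are shown, chosen as those which the results turn on and which hold no annotated UTR. They are the 150 bases before the 5′ end, read 5′ to 3′ on the strand of the gene from the GRCh38 reference, with each CpG in capitals. They lie at chr1:244051133-244051282 (ZBTB18, plus strand), chr19:35704408-35704557 (ZBTB32, plus strand), chr19:4066900-4067049 (ZBTB7A, minus strand), chr19:58519811-58519960 (ZBTB45, minus strand) and chr12:57006547-57006696 (ZBTB39, minus strand).
ZBTB18: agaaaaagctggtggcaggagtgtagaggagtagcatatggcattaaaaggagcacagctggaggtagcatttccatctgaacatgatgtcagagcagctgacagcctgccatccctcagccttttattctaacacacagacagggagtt
ZBTB32: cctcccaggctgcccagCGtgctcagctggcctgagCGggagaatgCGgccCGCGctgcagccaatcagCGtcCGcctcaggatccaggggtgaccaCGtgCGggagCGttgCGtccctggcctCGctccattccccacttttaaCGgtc
ZBTB7A: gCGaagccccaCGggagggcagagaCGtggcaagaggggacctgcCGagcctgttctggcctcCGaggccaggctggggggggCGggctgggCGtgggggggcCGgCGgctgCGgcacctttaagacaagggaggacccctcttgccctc
ZBTB45: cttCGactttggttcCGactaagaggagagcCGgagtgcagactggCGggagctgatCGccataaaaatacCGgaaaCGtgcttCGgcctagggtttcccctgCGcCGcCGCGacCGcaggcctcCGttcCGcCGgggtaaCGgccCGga
ZBTB39: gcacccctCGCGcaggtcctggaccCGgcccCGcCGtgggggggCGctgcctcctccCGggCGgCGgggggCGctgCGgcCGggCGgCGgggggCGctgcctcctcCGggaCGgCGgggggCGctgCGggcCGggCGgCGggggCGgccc

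ZBTB18 stands apart among the 5 with 0 CpG, while ZBTB32 has 13, ZBTB7A 10, ZBTB45 18 and ZBTB39 24. The telomeric repeat TTAGGG, to which ZBTB48 binds, was searched on both strands of the same window of 250 bases before to 50 after the 5′ end. It occurred at 3 members (7.69%), ZBTB8A, ZBTB21 and ZBTB43, and at 8.54% of all promoters. TCCTGCNA, the unmethylated site of ZBTB33, occurred at ZBTB18 and ZBTB47 (5.13%, against 4.25% of all). The palindromic CGCG element of ZBTB33 occurred at 0 members and 0.629% of all promoters. No motif contains another, and a match only says that the letters stand in the window.

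The 3 promoters that were not called throughout each had a peak close by. ZBTB18 (RP58), a transcriptional repressor that acts in neuronal development, has its MANE 5′ end at chromosome 1, 244051283 (GRCh38, plus strand). A peak upstream of it ran from −4480 to −247 bp in WT replicate 1 and from −4540 to 6 bp in WT replicate 2. In WT replicate 3 it ended at −1095 bp, and in KO replicates 1, 2 and 3 at −1126, −1167 and −1222 bp, just outside the 1 kb window. This peak lay over 3 other annotated 5′ ends of ZBTB18 (244048547, 244048939 and 244049799) in all 6 libraries. The MANE 5′ end, with the CpG-free sequence shown, was under a peak in 1 library.

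ZBTB32 (PLZP), a lymphocyte repressor, has its 5′ end at chromosome 19, 35704558 (plus strand). A peak stood upstream in every library, ending at −854, −1033 and −1357 bp in WT replicates 1, 2 and 3 and at −1407, −1476 and −1438 bp in the KO replicates. Only WT replicate 1 reached the window, and no annotated 5′ end lay under the peak. The 5′ end of ZBTB32 itself was under a peak in no library.

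ZBTB22 lies in the extended MHC region of chromosome 6, with its 5′ end at 33317744 (minus strand), between TAPBP, which helps load MHC class I molecules, and DAXX, a histone H3.3 chaperone. In WT replicates 1 and 2 a single peak of 13318 and 13053 bp ran over all 3 genes. In the other 4 lists that stretch held separate peaks, one over the 5′ end of TAPBP (33314078) and one over that of DAXX (33322959), with none at ZBTB22. Within 3 kb of the ZBTB22 5′ end the peaks covered 6001, 6001 and 172 bp in WT and 0 bp in each KO library. The drop thus fell between WT replicates 1 and 2 and the other 4 lists.

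**Figure D1:**
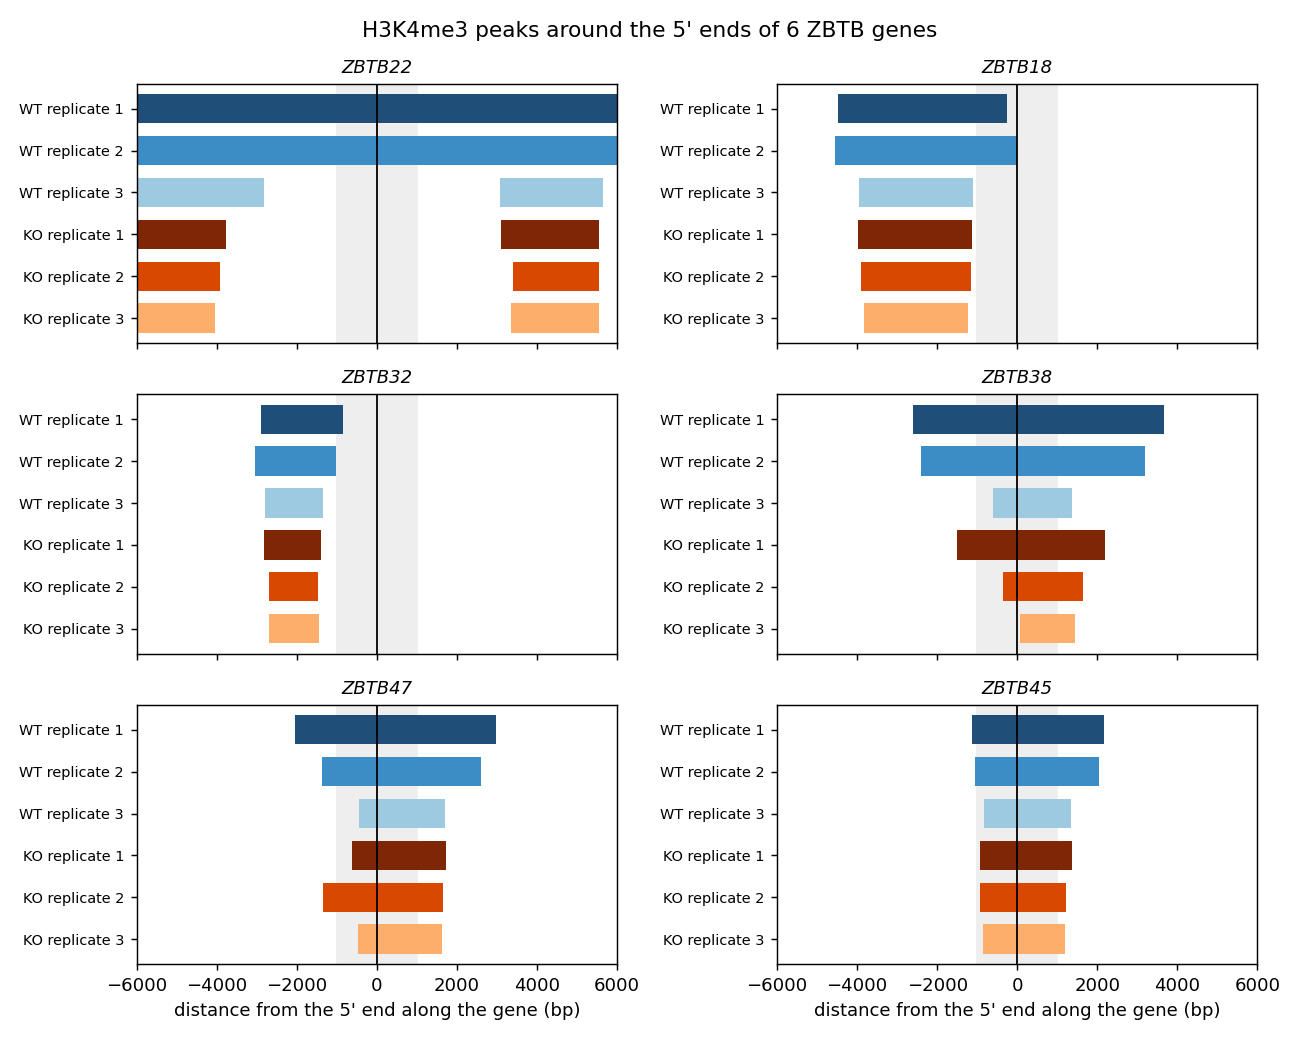
H3K4me3 peaks of the 6 libraries (bars, 1 row per library) against distance from the 5′ end along the gene in bp, for 6 ZBTB genes; the grey band is the 1 kb window on either side. At ZBTB22 the peaks of WT replicates 1 and 2 cross the 5′ end and those of the other 4 libraries do not, while at ZBTB45 all 6 peaks cross it.

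Covered length, the number of bp that peaks cover from 3 kb before to 3 kb after the 5′ end (6001 bp at most), gave the breadth of the mark. No member was broader in every KO than in every WT library (0 of 39, against 0.111% of the 14422 promoters covered in any library). At 22 of 39 (56.4%) every WT library was above every KO library, which held for 50.8% of all these promoters. The KO mean was below the WT mean at 39 of 39, by 273 bp at ZBTB8B to 4058 bp at ZBTB22. The median of KO minus WT was −1116 bp over the members and −965 bp over all covered promoters, where 3.52% had the higher mean in KO. Median covered length of the members was 3788, 3955 and 2117 bp in the WT lists and 2156, 1834 and 1759 bp in the KO lists. The step thus fell between WT replicates 1 and 2 and the remaining lists: both were broader than WT replicate 3 and all KO lists at 37 members, as at 89.1% of all promoters. The count of 22 rose to 37 without WT replicate 3 and to 36 without KO replicate 1, with 90.3% and 79.6% of all promoters.

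Among the 4 like lists, WT replicate 3 was above all 3 KO lists at 22 members (background 53.8%) and below all 3 at 0 (background 2.5%). The median of WT replicate 3 minus the KO mean was 172 bp over the members, from −390 to 423 bp, and 161 bp over all covered promoters. WT replicate 3 was below the KO mean at 5 members, or, of all promoters, at 14.7%. These 5 were ZBTB4, ZBTB8B, ZBTB9, ZBTB38 and ZBTB47, and the broadest KO library was KO replicate 1 at the first 4 and KO replicate 2 at ZBTB47. Members were broader than in WT replicate 3 at 16 of 39 in KO replicate 1, at 2 in KO replicate 2 and at 1 in KO replicate 3, beside 40.1, 11.4 and 6.43% of all promoters. KO replicate 3 had the lowest value at 28 members.

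**Figure D2:**
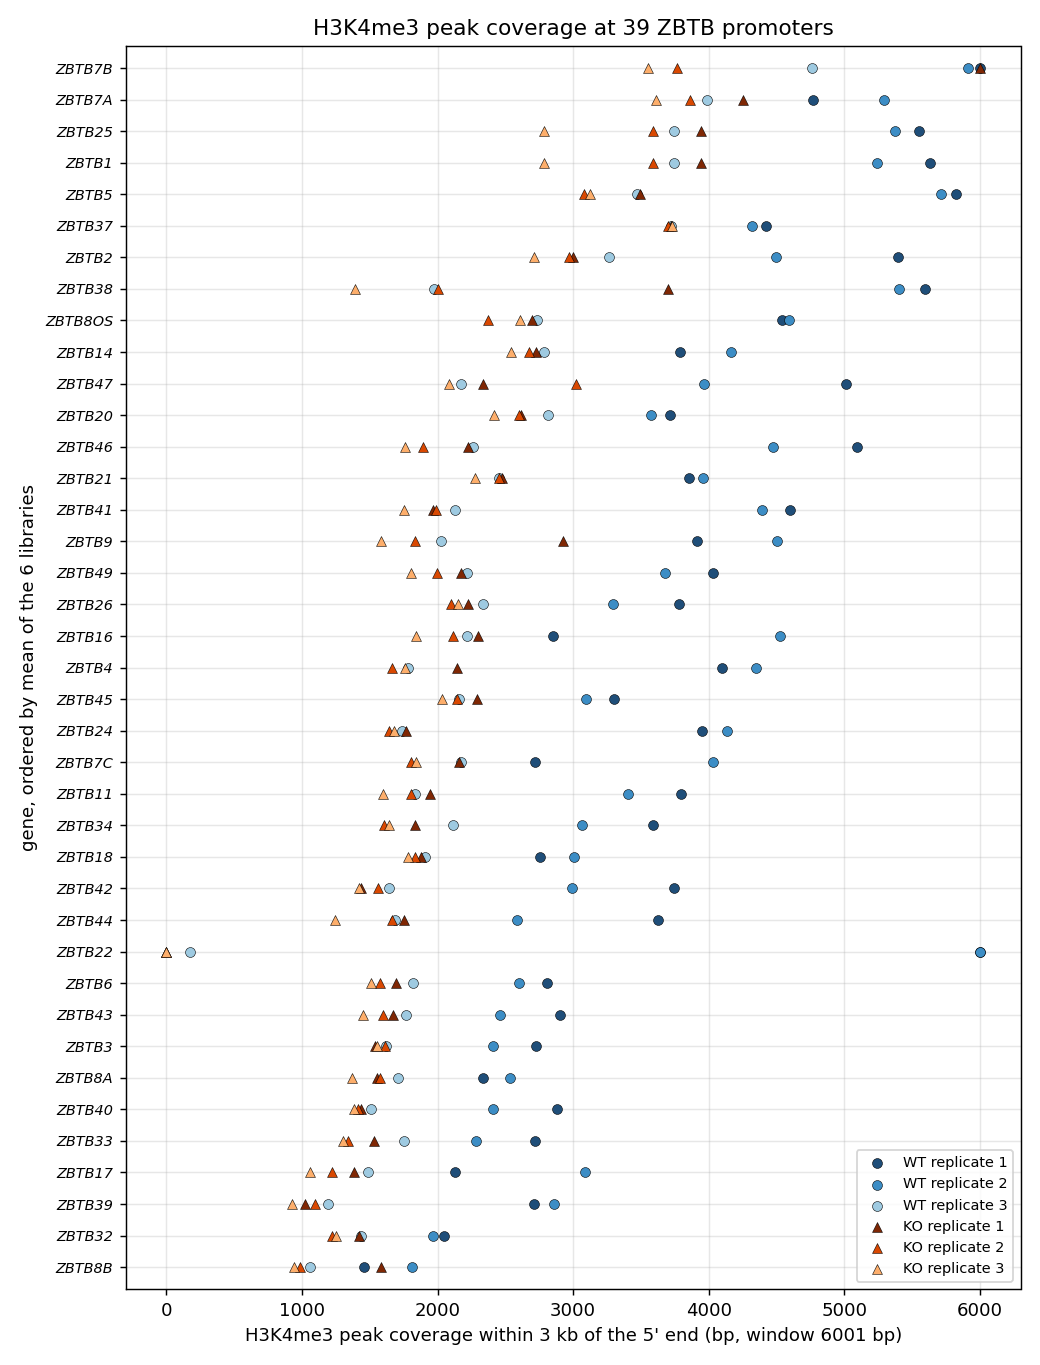
H3K4me3 peak coverage within 3 kb of the 5′ end (bp) at each of the 39 ZBTB promoters, circles for the WT and triangles for the KO libraries, genes ordered by their mean. The dark circles of WT replicates 1 and 2 lie to the right at nearly every gene, and the pale circles of WT replicate 3 lie beside the triangles.

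**Figure D3:**
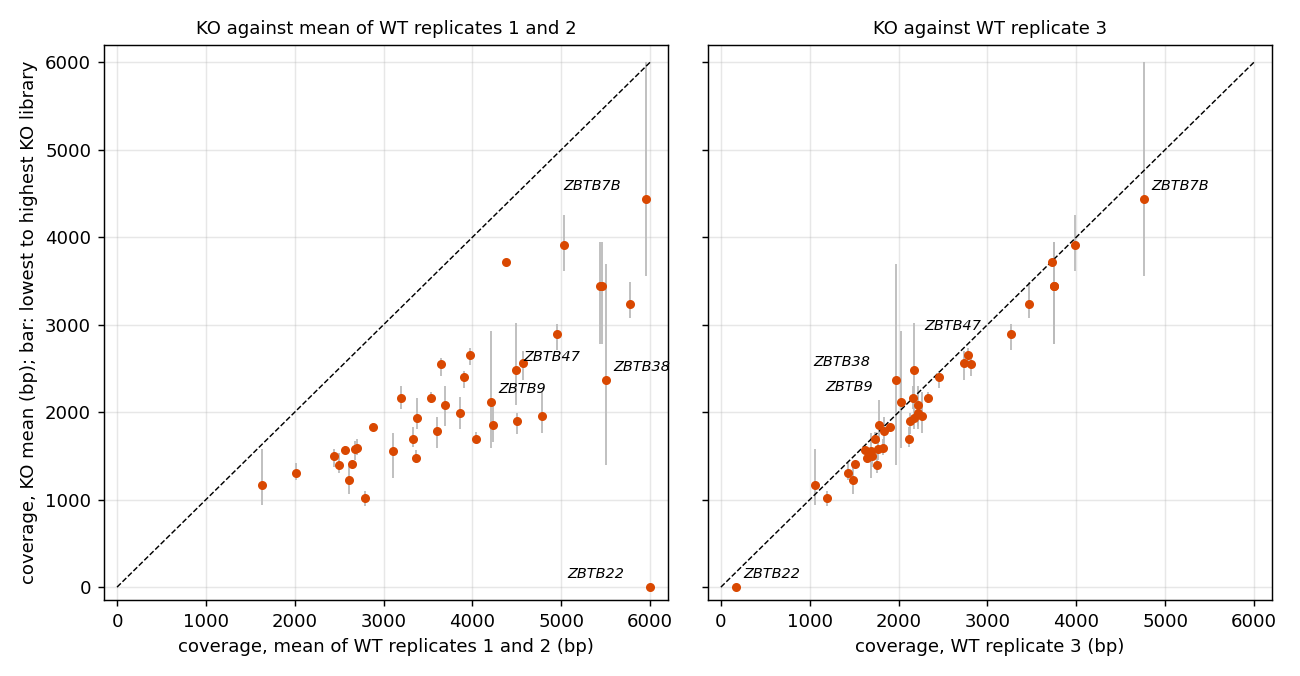
KO mean coverage (bp, bars from the lowest to the highest KO library) against the mean of WT replicates 1 and 2 (left) and against WT replicate 3 (right), 1 point per ZBTB promoter, with the line of equal values dashed. All 39 points lie below the line on the left, and they gather along it on the right, with 5 of 39 above.

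Breadth also varied between members. The broadest of those called throughout were ZBTB7B, ZBTB7A and ZBTB25. ZBTB7B (ThPOK), which directs T cells to the CD4 lineage, had 6001, 5913 and 4763 bp in WT and 6001, 3766 and 3551 bp in KO, so that KO replicate 1 filled the window as WT replicate 1 did. ZBTB7A (LRF), a repressor of fetal globin, had 4771, 5296 and 3985 bp in WT and 4256, 3860 and 3613 bp in KO. The groups overlapped at both. ZBTB7C, the third gene of this subfamily, was narrower, with 2720, 4031 and 2175 bp in WT and 2156, 1803 and 1841 bp in KO, and WT was above KO throughout. The 3 shortest were ZBTB8B, ZBTB39 and ZBTB17, and the 5′ end of ZBTB8B lies 15 bp from that of another protein-coding gene on the same strand, so their values cannot be told apart.

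ZBTB25 and ZBTB1, the latter needed for T cell development, start 932 bp apart on opposite strands of chromosome 14 and share 1 peak, so they are not separate observations. ZBTB1 had 5630, 5241 and 3748 bp in WT and 3942, 3587 and 2784 bp in KO. ZBTB25 had 5549 and 5375 bp in WT replicates 1 and 2 and equalled ZBTB1 in the other 4 libraries. In both, KO replicate 1 was above WT replicate 3. In all, 5 members had another protein-coding 5′ end within 1 kb, compared with 14.1% of all promoters.

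Of the methyl-CpG binding members all 3 were called in all 6 libraries, as were 65.1% of all promoters. ZBTB38 had 5597, 5402 and 1975 bp in WT and 3698, 2004 and 1393 bp in KO. It had the widest range of the 3, with KO replicates 1 and 2 above WT replicate 3, and in KO replicate 3 the peak began 63 bp past the 5′ end. ZBTB4 had 4100, 4351 and 1784 bp in WT and 2142, 1662 and 1763 bp in KO, again with KO replicate 1 above WT replicate 3. ZBTB33 (Kaiso) was the one whose groups did not overlap, with WT above KO as at 50.8% of all covered promoters. It had 2719, 2285 and 1754 bp in WT and 1532, 1341 and 1299 bp in KO. Its mean fell by 862 bp in KO (two-sided exact permutation p = 0.1), the smallest p that 3 against 3 libraries allow, so no single member could pass 0.05 by this test.

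Of the 9 members with roles in blood cell development, 8 were called throughout, ZBTB32 being the exception, and 4 were broader in every WT than in every KO library, where 65.1% of all promoters were called throughout and 50.8% of those covered had WT above KO. ZBTB16 (PLZF), which shapes innate-like T cells, had 2850, 4526 and 2219 bp in WT and 2297, 2111 and 1838 bp in KO. ZBTB20, a relative of BCL6, had 3715, 3574 and 2818 bp in WT and 2619, 2601 and 2416 bp in KO. The groups overlapped at ZBTB16 and not at ZBTB20. ZBTB24, mutated in the immunodeficiency syndrome ICF, had 3952, 4138 and 1737 bp in WT and 1768, 1643 and 1682 bp in KO. ZBTB46, a marker of classical dendritic cells, had 5097, 4473 and 2261 bp in WT and 2226, 1894 and 1759 bp in KO. ZBTB17 (MIZ-1) had 2131, 3086 and 1490 bp in WT and 1381, 1221 and 1059 bp in KO. WT replicate 3 was within 40 bp of the highest KO library at ZBTB24 and ZBTB46, and the overlap at ZBTB24 came from KO replicate 1.

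The members linked to p53, ARF and CDKN1A regulation were all called in all 6 libraries, as were 65.1% of all promoters. In covered length 3 of the 6 (ZBTB2, ZBTB17 and ZBTB33) had WT above KO, as did 50.8% of all covered promoters. ZBTB2 had 5394, 4497 and 3265 bp in WT and 3002, 2968 and 2712 bp in KO. ZBTB5, a repressor of CDKN1A, had 5828, 5713 and 3468 bp in WT and 3492, 3080 and 3123 bp in KO, with KO replicate 1 above WT replicate 3 by less than 30 bp. No member was broader in every KO library (0 of 39, against 0.111% of all covered promoters), so no role list could hold one.

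The 5 largest falls in mean covered length among members called throughout were at ZBTB46, ZBTB38, ZBTB41, ZBTB5 and ZBTB24, where KO minus WT was −1984 to −1578 bp. ZBTB41 had 4599, 4397 and 2131 bp in WT and 1966, 1991 and 1750 bp in KO, and its mean fell by 1807 bp, while WT replicate 3 was 229 bp above the KO mean. The 5 smallest were at ZBTB8B, ZBTB37, ZBTB3, ZBTB8A and ZBTB45, where KO minus WT was −273 to −697 bp. ZBTB8B had 1457, 1811 and 1057 bp in WT and 1583, 982 and 941 bp in KO. ZBTB37 had 4423, 4322 and 3726 bp in WT and 3720, 3700 and 3729 bp in KO, so the last 4 libraries lay within 30 bp of each other. ZBTB3 (2723, 2409 and 1619 bp in WT, 1537, 1609 and 1555 bp in KO) and ZBTB8A (2338, 2537 and 1706 bp in WT, 1552, 1573 and 1372 bp in KO) had groups that did not overlap.

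Since breadth differed by list, each promoter was also ranked within its own library. The percentile of covered length among the 14422 promoters covered in any library was higher in every KO than in every WT library at 5 members (12.8%, against a background of 11.9%). They were ZBTB7A, ZBTB18, ZBTB21, ZBTB32 and ZBTB45. The opposite held at ZBTB17 and ZBTB22, 5.13% against a background of 6.29%. Both shares were near that of all promoters. The first count was 9 without WT replicate 3 and 10 without KO replicate 1 (27.1 and 22.2% of all promoters), and the second was 10 without WT replicate 3 and 4 without either WT replicate 2 or KO replicate 3 (19.7, 9.22 and 9.15%).

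The largest of these 5 shifts was at ZBTB45, which stood at percentiles 52.7, 47.6 and 64.0 in WT and 73.2, 74.8 and 74.5 in KO. In bp its peak was not broader, with 3304, 3098 and 2159 bp in WT and 2293, 2144 and 2034 bp in KO, and WT replicate 3 lay among the KO libraries. ZBTB21 stood at percentiles 69.5, 75.7 and 77.6 in WT and 80.2, 85.8 and 84.5 in KO. ZBTB18 stood at 35.0, 44.1 and 48.3 in WT and 49.0, 57.4 and 60.9 in KO, a gap of less than 1 between WT replicate 3 and KO replicate 1. ZBTB32 stood at 18.1, 15.1 and 18.7 in WT and 19.2, 19.3 and 25.7 in KO, and ZBTB7A at 90.2, 96.4 and 98.2 in WT and 98.8, 99.1 and 99.0 in KO. At all 5 WT replicate 3 was the WT library nearest to KO. In the 4 like lists, WT replicate 3 was the lowest in percentile at 10 members and the highest at 5, while 30.3% and 21.9% of all promoters did so.

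limma on these percentiles called 0 members and 0 of the 14422 promoters in either direction at an adjusted p under 0.05 (0% of all). At an unadjusted p under 0.05, 2 members were higher in KO (background 6.56%), ZBTB45 by 19.4 ± 6.41 percentile points (SE, limma adjusted p = 0.421) and ZBTB37 by 9.86. ZBTB22, ZBTB39 and ZBTB46 were lower, 3 members against a background of 5.04%. The smallest adjusted p of any member was that same 0.421. One library decided this outcome. Without WT replicate 3, limma called 510 promoters higher in KO (3.54%) and 565 lower (3.92%), among them 3 members higher (ZBTB20, ZBTB37 and ZBTB45) and 4 lower (ZBTB22, ZBTB39, ZBTB41 and ZBTB46). At an unadjusted p under 0.05 that fit had 6 members in each direction, with 14.8% of all promoters higher and 12.5% lower. It sets WT replicates 1 and 2 alone against the KO lists, and genotype and the wider peaks of those 2 lists cannot be told apart in it. At ZBTB20 and ZBTB37 WT replicate 3 stood at percentiles 88.1 and 97.3, among the 84.5 to 89.5 and 97.3 to 99.3 of the KO libraries.

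**Figure D4:**
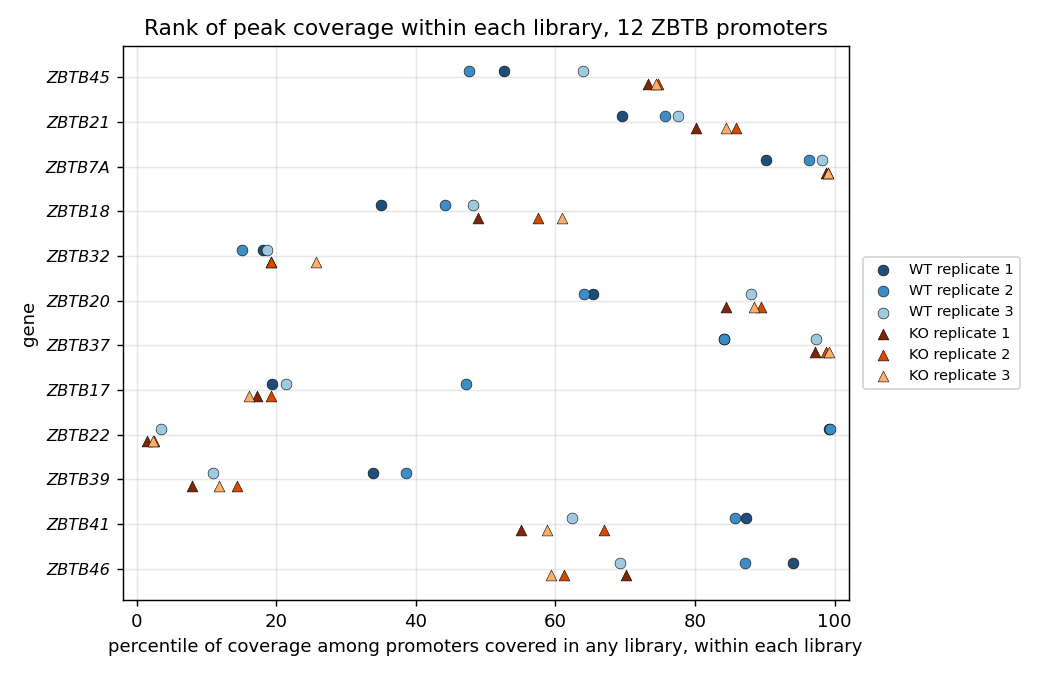
Percentile of peak coverage among the promoters covered in any library, computed within each library, for 12 ZBTB promoters, circles for the WT and triangles for the KO libraries. The KO triangles lie above all WT circles at 5 genes (ZBTB45, ZBTB21, ZBTB7A, ZBTB18 and ZBTB32), and at ZBTB20, ZBTB37, ZBTB39, ZBTB41 and ZBTB46 the pale circle of WT replicate 3 lies among or beside them.

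Peak strength was compared by the percentile of fold enrichment of a promoter's strongest peak among all peaks of the same list. The comparison was made at the 13036 promoters called in all 6 libraries, which left 36 members. It was higher in every KO than in every WT library at ZBTB17 and ZBTB39, 2 of 36 (background 7.69%), and the reverse held at 0 (background 4.77%). ZBTB17 stood at percentiles 76.8, 66.4 and 90.2 in WT and 92.4, 93.6 and 96.9 in KO. ZBTB39 stood at 67.7, 64.9 and 94.2 in WT and 97.8, 96.0 and 98.4 in KO. Both are among the 3 shortest promoters, and both had their groups apart in bp the other way: ZBTB39 had 2714, 2862 and 1193 bp in WT and 1019, 1094 and 928 bp in KO. Thus the same promoters ranked higher in mean enrichment and were narrower in KO. Fold enrichment is a mean over the peak, so the 2 measures are not independent. Within the 4 like lists, WT replicate 3 was below all KO lists in enrichment percentile at 14 members (background 41.9%) and above them at 1 (background 10.9%). Without WT replicate 3 the counts became 5 higher in KO and 22 higher in WT, beside 22.2 and 57.2% of all promoters. Without KO replicate 1 they became 5 and 1, beside 14.8 and 7.33%. Without KO replicate 3, 5 members were higher in WT, beside 11.4%.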

How the data were processed

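H3K4me3 ChIP-seq was carried out on 3 WT and 3 ZBTB48 KO clones of U2OS, which were grouped by genotype and replicate number in their labels. Per the study's methods and processing notes, the authors used Trimmomatic for trimming, Bowtie2 2.3.5.1 for alignment to GRCh38 and MACS2 2.1.1.2 for calling broad peaks in each library, after duplicates and multimapping reads had been removed. Whether an input was given for each list is not given in the sources used here. The deposited score, the caller's integer display value, was not used. The deposited fold enrichment is a ratio of ChIP over local background, averaged over a peak. The authors' −log10 values of p and q are averages of the same kind. They served to rank or filter peaks within a list. No counts are held, so depth is unknown here and no interval was computed.

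Promoters were the 5′ ends of MANE Select, or else canonical, transcripts of 20033 protein-coding genes of GENCODE release 44. Covered length was compared over libraries by two-sided exact permutation (20 assignments), and its within-library percentile by limma 3.58.1 in R 4.3.3 with Benjamini-Hochberg adjustment over all promoters covered in any library. Ranges were compared as groups that do or do not overlap. Alternatives were −log10 q of at least 3, fold enrichment of at least 4, equal numbers of peaks (21712 per list), an overlap of at least 500 bp, any annotated 5′ end, exchanged windows, the replicate block, WT replicate 3 as the only WT list, and leaving out each library. The counting was tested on simulated data in which no list was wider than the others as a whole. It therefore does not check the counts under the wider peaks of WT replicates 1 and 2. Python 3.11.15, numpy 2.4.6, pandas 2.3.3, scipy 1.17.1 and matplotlib 3.10.9 were used.

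Members given singly were those not called throughout, those above WT in every KO library, those called by limma, the 5 largest and 5 smallest falls in covered length, the 3 broadest and 3 shortest, and those of the role lists. The members, lists and alternatives were chosen with earlier results of these data known. A gene named outside this rule was chosen after its values were seen. P-values measure the spread between these clones. The value of 1 gene of the marker lists is not reported here.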

Additional observations from a re-analysis of the deposited data

How the results depend on the processing

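Of 157 alternatives over the counts and medians above, 124 stayed close to the reported value and 33 moved it. A reversal, scored 0 times, could be scored only for members called per library and median covered length. For these, close meant within the SD of the WT libraries. The replicate block leaves the calls and medians as they are. The counts of members called in KO only and of members broader in every KO library were 0 under every alternative. A fold enrichment of at least 4 lies far below the median of WT replicates 1 and 2 (13.4 and 14.0). It lies near that of the other lists (4.19 to 4.65), so the filter falls unequally on the lists. With it the WT excess in members called per library was 7.67 (reported 1.67), and the matching share of all promoters was not computed. It left 10 members broader in every WT library (31.7% of all promoters). Percentile was then higher in KO at 2 (4.82%) and in WT at 11 (18.2%). The reported counts were 5 and 2, so the larger count changed sides. With the 1 kb and 3 kb windows exchanged 1 member was WT only, for which no share of all promoters was computed. In that setting 13 were broader in every WT library (38.7%) and 8 had the higher percentile in KO (16.7%). The WT excess in median covered length was then 293 bp (reported 1370 bp). With WT replicate 3 as the only WT list the excess in members called was 0 and that in median covered length was 201 bp. Percentile was higher in KO at 10 (30.3% of all promoters) and in WT at 5 (21.9%), and enrichment percentile at 14 (41.9%) and 1 (10.9%). The cause of these moves was not tested.

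Leaving out 1 library at a time gave 0 to 2 members called in WT only and an excess of 1 to 2.5 members called per library. It gave 22 to 37 broader in every WT library (51.3 to 90.3% of all promoters). Percentile was higher in KO at 5 to 10 (15.1 to 27.1%) and in WT at 2 to 10 (8.92 to 19.7%). Enrichment percentile was higher in KO at 2 to 5 (9.14 to 22.2%) and in WT at 0 to 22 (5.26 to 57.2%). The excess in median covered length was 1036 to 1955 bp. There were 0 to 3 limma calls higher in KO (0 to 3.54%) and 0 to 4 lower (0 to 3.92%). The 2 WT-only members without WT replicate 3 were ZBTB18 and ZBTB22. Only the 2 lists with wider peaks then stand for WT. For calls per library and WT-only calls, no share of all promoters was computed under these alternatives. The WT-only share of 0.15% given above is from all 6 libraries, so 2 of 39 cannot be set against it.

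Whether the shared replicate numbers pair the libraries is not known. Deviations from the genotype means correlated at −0.0284, −0.0658 and 0.0191 within numbers 1, 2 and 3, and at −0.0732 to 0.115 between unlike numbers. Deviations from the same mean are tied to each other, so these values cannot decide it. With the replicate block, 36 members were broader in WT in every pair (85.6% of all promoters), percentile was higher in KO at 9 (23.3%) and in WT at 6 (12.4%), and enrichment percentile was higher in WT at 1 (10.1%), while limma still called 0.

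Without read counts the lists cannot separate a narrower mark from a shallower library. A missing peak means only that none was called at that threshold.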

Other observations

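A further 8 BTB zinc finger genes carry names other than ZBTB. BCL6, BCL6B, PATZ1, GZF1, MYNN and ZNF131 were called in all 6 libraries, as were 65.1% of all promoters. HIC1 and HIC2 had no peak within 3 kb in any, so 6 of the 8 were covered. Covered length was higher in every WT than in every KO library at 5 of these 6 (50.8% of all covered promoters) and the reverse was found at 0 (0.111%). BCL6, a transcriptional repressor that acts in germinal centre B cells, had 4984, 4829 and 3137 bp in WT and 3127, 3026 and 3032 bp in KO. MYNN had 3352, 3209 and 2428 bp in WT and 2419, 2793 and 2283 bp in KO, and was the one of the 6 with overlapping groups, KO replicate 2 being above WT replicate 3. PATZ1 was broad throughout, with 5695, 5167 and 5378 bp in WT and 4101, 4526 and 3870 bp in KO, and there WT replicate 3 stood with the other 2 WT lists. ZBTB48 itself had 3161, 3330 and 1821 bp in WT and 1855, 1555 and 1241 bp in KO.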
